A study of Mus musculus with 6 samples.

Results

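The 10 genes described here encode surface proteins used to sort plasma cells or to judge their maturity: Sdc1, Slamf7, Cd93, Cd38, Epcam, Ptprc, Cd24a, Cd9, Cd37 and Cd81. They were taken by gene symbol from a deposited table of 13642 genes, in which all 10 were present. The table held RNA sequencing of long-lived plasma cells, resting cells of the bone marrow that secrete antibody for long periods, from 3 young and 3 old samples of C57BL/6J mice. Young mice were 2 to 3 months old, female, and supplied by UCLA's animal facility or the Jackson Laboratory. Old mice were 17 to 19 months old, male, and supplied by the National Institute on Aging. The labels name no mutation or treatment in either group, and no batch. Age, sex and supplier changed together and cannot be told apart. Cells were sorted for high CD138, the product of Sdc1, and against B220, IgD, both kinds of T cell receptor, CD11b and Gr-1, so the Sdc1 protein was itself a criterion of entry. The series text speaks of independent groups of mice without saying how many animals made up a library, so each p-value reflects the spread of these samples, part of which may be technical.

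A B cell that becomes a plasma cell exchanges its surface. It gains CD138, a heparan sulphate proteoglycan that binds growth and survival factors, and it loses much of the B cell receptor complex and of the long form of CD45 that the B220 antibody sees. In marrow, survival of the mature cell depends on contact with stroma and myeloid cells and on soluble factors that reach it through such surface proteins. Tetraspanins, small proteins that cross the membrane several times, gather receptors and adhesion molecules into platforms there.

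Stretches upstream of 5 of these genes are shown because the genes span the range of behaviour described further on: Sdc1 and Slamf7 had the highest mean levels, Epcam and Cd9 varied most between libraries, and Cd81 was the tetraspanin with the highest level. Sequences are from RefSeq on GRCm38.p6, printed on the gene's strand and ending before the first exon of a protein-coding gene in GENCODE M21. Upstream sequence was matched for 8 of the 10 members. Capitals mark matches, on either strand, to any of the 6 short motifs spelt out after the sequences. The Sdc1 stretch is chr12:8771146-8771322 (plus strand), the Slamf7 stretch chr1:171649008-171649249 (minus), the Epcam stretch chr17:87635729-87635978 (plus), the Cd81 stretch chr7:143052500-143052738 (plus) and the Cd9 stretch chr6:125494792-125495010 (minus). The Slamf7 stretch lies inside the annotated span of that gene, outside its exons.
Sdc1: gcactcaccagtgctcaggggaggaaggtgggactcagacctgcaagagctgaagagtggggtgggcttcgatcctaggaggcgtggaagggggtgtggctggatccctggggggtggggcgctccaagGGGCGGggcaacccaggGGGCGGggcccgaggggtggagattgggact
Slamf7: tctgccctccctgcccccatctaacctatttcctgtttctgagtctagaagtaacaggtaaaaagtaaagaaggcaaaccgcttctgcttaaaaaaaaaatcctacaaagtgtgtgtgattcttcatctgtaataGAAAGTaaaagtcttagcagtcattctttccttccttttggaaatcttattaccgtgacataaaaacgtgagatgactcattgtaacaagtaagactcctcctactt
Epcam: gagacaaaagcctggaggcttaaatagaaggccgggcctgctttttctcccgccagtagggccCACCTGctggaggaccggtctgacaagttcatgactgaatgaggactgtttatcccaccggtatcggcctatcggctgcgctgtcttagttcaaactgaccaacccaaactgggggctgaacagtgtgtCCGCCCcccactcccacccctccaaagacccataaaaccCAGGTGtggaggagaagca
Cd81: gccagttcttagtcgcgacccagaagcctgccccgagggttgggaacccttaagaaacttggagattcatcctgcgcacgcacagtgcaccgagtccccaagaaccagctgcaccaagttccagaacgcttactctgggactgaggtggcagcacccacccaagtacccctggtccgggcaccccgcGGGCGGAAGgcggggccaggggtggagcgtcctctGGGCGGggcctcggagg
Cd9: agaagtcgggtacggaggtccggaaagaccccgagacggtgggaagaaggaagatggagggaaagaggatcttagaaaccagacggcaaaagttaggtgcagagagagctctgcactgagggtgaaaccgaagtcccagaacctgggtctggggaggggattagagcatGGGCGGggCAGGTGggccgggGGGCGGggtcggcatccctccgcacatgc

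Motifs were sought over the 250 bases before each RefSeq start, on both strands. A GC box, spelt GGGCGG, was found in 5 of the 8 members with sequence, against 32.7% of 32851 promoters. Sdc1 and Cd81 held 3 GC boxes each in that window, the one nearest the start falling outside the printed stretch, and Cd9 held 2. An E box of the kind bound by E proteins, spelt CAGGTG, was found in 3 of the 8 members (17.2% of promoters), the Epcam window holding 2. A core shared by PRDM1 and IRF motifs, spelt GAAAGT, was found in 1 of the 8, Slamf7 (12.3% of promoters). An ETS site, spelt CGGAAG, was found in Cd81 (13.6%), where it overlaps the GC box farthest from the start. A TATA box, spelt TATAAA, was found in Ptprc (12.4%). The core shared by XBP1 and CREB family motifs, spelt ACGTGG, was found in Cd37 (6.91%). The windows of Sdc1 and Cd81 were 66.0% and 65.6% G+C, that of Slamf7 38%, and the median promoter 52.4%. These matches describe letters only, and the window of a member may differ from the start used in plasma cells.

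Levels are given as FPKM, fragments scaled by gene length and by the library's mapped fragments, so that genes can be set side by side. The order of genes then depends on the length used for each, which the sources used here do not give. In GENCODE M21 the exons of Ptprc together cover 18313 bases and those of Cd81 2879. The order by mean over the 6 libraries was Sdc1 at 294, Slamf7 at 253, Cd24a at 213, Cd81 at 95.4, Cd93 at 61.7, Epcam at 57.3, Ptprc at 31.0, Cd37 at 25.9, Cd9 at 2.99 and Cd38 at 2.87 FPKM. This order split into 3 tiers whose ranges did not touch. Every value of Cd24a exceeded every value of Cd81, but narrowly: the lowest Cd24a was 148.2 (young replicate 3) and the highest Cd81 146.6 (old replicate 2). Every value of Cd37 exceeded every value of Cd9, the lowest Cd37 being 11.06 and the highest Cd9 6.885. Within the tiers neighbours overlapped: Sdc1 was above Slamf7 in 5 of 6 libraries, Cd93 above Epcam in 3 of 6, Ptprc above Cd37 in 3 of 6, and Cd9 above Cd38 in 2 of 6. The 3 genes of the top tier ranked between 75th and 268th among the 13642 genes in every library, while Cd38 ranked between 6883rd and 9716th.

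**Figure D1:**
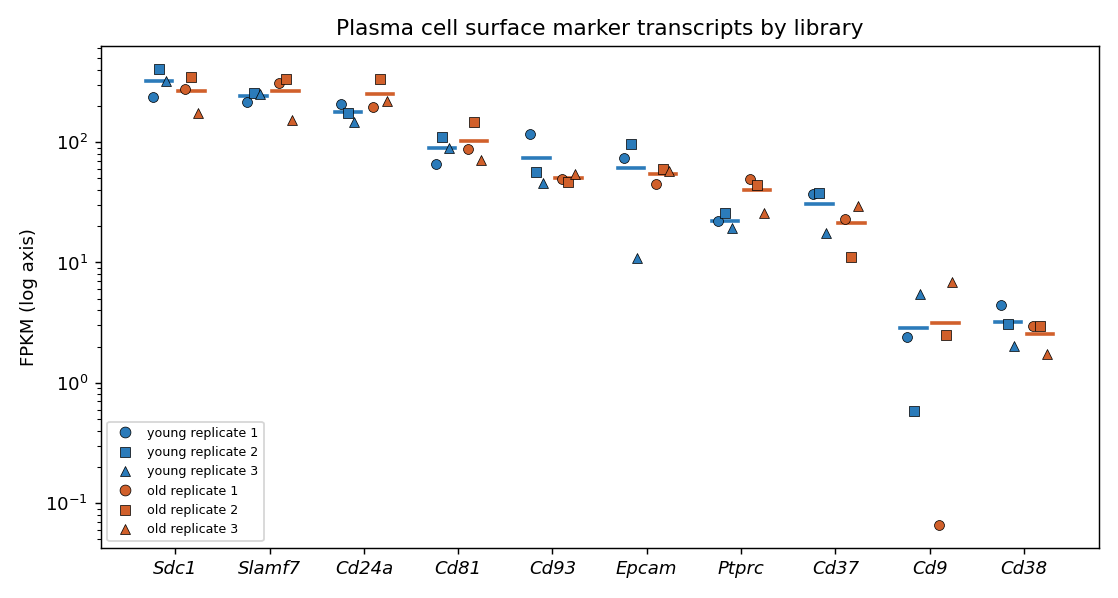
FPKM (log axis) of the 10 surface marker genes in each library, ordered by mean level, with symbols for replicates, blue for young and orange for old, and a bar at each group mean. Young and old points overlap for all 10 genes, and the lowest points are Cd9 in old replicate 1 (0.0660 FPKM) and Epcam in young replicate 3 (10.9 FPKM) within their genes.

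Old and young values were compared on log2(FPKM + 1) with limma, fitted over the 10687 genes with a mean of at least 1 FPKM, with calls made at a Benjamini-Hochberg adjusted p below 0.05. All 10 members passed the filter on low values and 0 were called, against a background of 0.0% of tested genes called. At an unadjusted limma p under 0.05 the counts were 0 of 10 members and 5.91% of tested genes. The groups overlapped for all 10 members, whereas they did not overlap for 12.2% of tested genes. The old-minus-young difference was positive for 5 members, against 61.3% of tested genes, and negative for 5, against 38.7%, with a median of -0.0089 on the log2 scale, beside a median of 0.23 over all tested genes and of 0.018 over the 2835 genes with a mean of at least 20 FPKM. Intervals were wide, so that differences of moderate size in either direction remain within them.

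**Figure D2:**
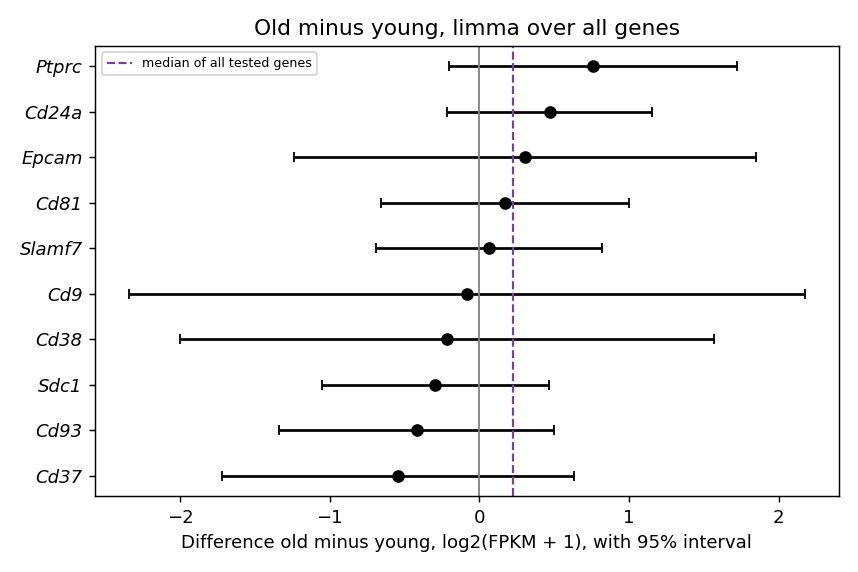
Difference old minus young on the log2(FPKM + 1) scale for each surface marker gene, as the limma estimate (point) with its 95% interval (bar), with a grey line at 0 and a dashed line at the median of all tested genes (0.23). All 10 intervals include 0, and those of Cd9 and Cd38, the genes of lowest level, are the widest.

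Sdc1, the proteoglycan CD138 and the positive marker of the sort (chromosome 12, 8771323 to 8793715, plus strand, GRCm38), was at 236, 407 and 321 FPKM in the young group and 274, 349.8 and 174 in the old group. The highest value was young and the lowest old, but 2 old libraries lay inside the young range. The difference was -0.29 ± 0.34 (SE) on the log2 scale, with a 95% interval of -1.05 to 0.46 (limma adjusted p = 0.883, two-sided exact permutation p = 0.5 on mean FPKM, where 0.1 is the smallest p that 3 against 3 allows). Without old replicate 3, the library of lowest Sdc1, the difference was -0.018. In bulk samples a lower share of plasma cells and less RNA per cell cannot be told apart.

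Slamf7, a SLAM family receptor strongly expressed on plasma cells and targeted by antibody in myeloma (chromosome 1, 171632403 to 171653035, minus strand), measured 215, 254 and 252 FPKM in the young group. Its old values were 309, 334 and 153, so that the old libraries lay both above and below the whole young range. The difference was 0.07 ± 0.34 (SE), interval -0.69 to 0.82 (limma adjusted p = 0.987), and 0.42 without old replicate 3. Old replicate 3 held the lowest level of 3 members, Sdc1, Slamf7 and Cd38. It also held the lowest Jchain, 7514 FPKM against 16940 to 19790 in the other libraries. Summed markers were highest there for erythroid cells (848 FPKM against 0.336 to 295.5) and for monocytes and macrophages (805 against 51.7 to 277). The same held for progenitors (80.5 against 3.19 to 37.9) and megakaryocytes (54.3 against 9.93 to 16.6). It also held for eosinophils and basophils (1485 against 906.6 to 1427) and NK cells (45.75 against 0.00646 to 36.6). The part of these cell types in the low Sdc1 and Slamf7 values was not tested.

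Cd24a encodes the small lipid-anchored glycoprotein CD24, carried by B cells, their precursors and granulocytes as well (chromosome 10, 43578284 to 43584265, plus strand). Its level was 209, 173 and 148 FPKM in the young group and 197, 333 and 218 in the old group. One old library stood above the rest, and old replicate 1 was below young replicate 1. The difference was 0.47 ± 0.31 (SE), interval -0.22 to 1.15 (limma adjusted p = 0.851, exact permutation p = 0.2), and 0.24 without old replicate 2, the library of highest Cd24a. In that library the summed markers of neutrophils were at their highest, 1288 FPKM against 263 to 947.5 elsewhere, and those of B precursors at their lowest, 5.18 FPKM. The B precursor list, mostly Dntt, summed to 142.5 to 191.6 FPKM in young and 5.18 to 104 in old libraries, without overlap, with Vpreb1 and Igll1 below 0.1 FPKM in all 6. Whether RNA of either cell type bears on Cd24a was not tested.

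Cd93, a lectin-like receptor known to be needed for the upkeep of plasma cells in marrow and present on endothelium and myeloid cells too (chromosome 2, 148436640 to 148443563, minus strand), was the steadiest member within old libraries, at 49.7, 46.6 and 54.0 FPKM. Young libraries were at 118, 56.15 and 45.7. A single library, young replicate 1, lay far above the other 5, which all fell between 45.7 and 56.15. The difference was -0.42 ± 0.41 (SE), interval -1.34 to 0.50 (limma adjusted p = 0.857), and -0.018 without young replicate 1. The endothelium and stroma list summed to 18.8 FPKM in young replicate 1, against 8.36 to 20.95 in the other libraries. The leading genes of that list by mean level were Pecam1 and Cdh5. In young replicate 1 Pecam1 was at 14.05 against 7.94 to 16.8 elsewhere, and Cdh5 was listed at 0 against 0 to 3.52. The part of endothelial RNA in that Cd93 value was not tested.

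Epcam encodes a homophilic adhesion molecule best known from epithelia and used as a sort marker of mature plasma cells (chromosome 17, 87635979 to 87651129, plus strand). Its level was 73.4, 97.2 and 10.9 FPKM in the young group and 44.85, 60.2 and 57.4 in the old group. Young libraries thus held both extremes, with a range of 8.94-fold, and the old libraries lay close together between them. The difference was 0.31 ± 0.69 (SE), interval -1.24 to 1.85 (limma adjusted p = 0.954), and it was -0.64 without young replicate 3. That library was the shallowest, at about 22.6 M reads by the size of the lowest values, and had the fewest genes above 0, 8934. Its Epcam value stood for about 540 reads, and the part of depth in it was not tested. Within-group spread of Epcam was larger than that of 86.6% of the 1579 genes of similar level, taken as those with a mean within 2-fold of its own.

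Cd38, an ectoenzyme that consumes NAD and a main plasma cell marker in humans (chromosome 5, 43868553 to 43912375, plus strand), was low in every library. It was at 4.43, 3.10 and 2.015 FPKM in young and at 2.94, 2.99 and 1.73 in old libraries, or about 180 to 420 reads. The lowest value was old and the highest young, with the other 4 in between and mixed. The difference was -0.22 ± 0.80 (SE), interval -2.0 to 1.57 (limma adjusted p = 0.981). It was -1.08 after quantile normalization, -0.0074 without young replicate 1, -0.036 without old replicate 3 and -0.43 without young replicate 3. For a gene of its level Cd38 varied little: 2.42% of 3176 genes of similar level had a smaller within-group spread. An annotated antisense gene overlaps Cd38, and genes on the opposite strand also overlap the spans of Slamf7, Cd9, Cd37 and Cd81. The sources used here do not say whether counting took strand into account.

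Ptprc, the receptor-type tyrosine phosphatase CD45 of leukocytes (chromosome 1, 138062861 to 138175708, minus strand), had the largest positive difference among the members. Its level was 21.9, 25.8 and 19.2 FPKM in the young group and 49.5, 43.8 and 25.55 in the old group. Old replicates 1 and 2 lay above every young library, and old replicate 3 lay just below the highest young value. The difference was 0.76 ± 0.43 (SE), interval -0.20 to 1.72 (limma adjusted p = 0.844, exact permutation p = 0.2), and 0.53 relative to the median of all tested genes. Leaving out old replicate 1 gave 0.58 and leaving out old replicate 3 gave 1.04. The gene-level value pools all transcripts, 13 in GENCODE M21, so it does not say which CD45 isoform was present, and the B220 epitope removed by the sort is not read by it. Other leukocytes carry CD45 as well. The monocyte gene Lyz2 was at 26.75 to 99.1 FPKM in the young group and 179 to 516 in the old group, without overlap. Its highest value was in old replicate 3, the old library of lowest Ptprc. Cd68, next by mean level, was highest in young replicate 3, the library of lowest Ptprc, at 128.9 FPKM against 0.633 to 53.6 elsewhere. The monocyte and macrophage list of 11 measured genes overlapped, at 51.7 to 262 against 209.5 to 805. The part of other leukocytes in the Ptprc values was not tested.

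Among the 3 tetraspanins Cd81 was the most abundant (chromosome 7, 143052739 to 143067934, plus strand). It was at 65.4, 111 and 89.4 FPKM in young and at 88.2, 147 and 71.7 in old libraries, with broad overlap. The difference was 0.17 ± 0.37 (SE), interval -0.66 to 1.00 (limma adjusted p = 0.952).

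Cd37, a tetraspanin largely restricted to leukocytes (chromosome 7, 45233632 to 45239115, minus strand), had the largest negative difference of the members. It was at 37.0, 37.5 and 17.5 FPKM in young and at 22.8, 11.1 and 29.4 in old libraries. The 2 highest values were young and the lowest was old, but young replicate 3 lay below 2 of the old libraries. The difference was -0.55 ± 0.53 (SE), interval -1.72 to 0.63 (limma adjusted p = 0.854, exact permutation p = 0.3), ranging from -0.89 without young replicate 3 to -0.16 without old replicate 2. Tead2, on the opposite strand, overlaps the annotated span of Cd37.

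Cd9, a tetraspanin of platelets and of some B and plasma cell subsets (chromosome 6, 125460266 to 125494791, minus strand), was the most uneven member. Its values were 2.40, 0.5845 and 5.51 FPKM in young and 0.0660, 2.505 and 6.885 in old libraries, a range of 104-fold. The lowest value rested on about 3.7 reads and the highest on about 380. High and low libraries occurred in both groups, and the difference was -0.08 ± 1.01 (SE), interval -2.34 to 2.173 (limma adjusted p = 0.995). After quantile normalization it was -0.66. The list of 8 megakaryocyte and platelet genes summed to 9.93 to 14.1 FPKM in young and 12.5 to 54.3 in old libraries, highest in old replicate 3 and, within the young group, in young replicate 3, as Cd9 was. Its leading gene Itga2b was at 17.7 FPKM in old replicate 3 and 12.2 in young replicate 3, against 0.160 to 8.42 elsewhere. Gp9 and Pf4 were at 24.7 and 3.65 in old replicate 3 and listed at 0 in the other 5 libraries. Other genes of the list did not follow Cd9. Itgb3, second by mean level, was lowest in young replicate 3 (0.974) and at 6.47 in old replicate 1, where Cd9 was lowest. Ppbp was at 9.18 in old replicate 2 and listed at 0 in the other 5 libraries. The part of platelet RNA in the Cd9 values was not tested. The spread of Cd9 within groups was ordinary for its level, larger than that of 57.2% of 3252 genes.

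Since the sort selected on CD138, each member was also divided by the Sdc1 level of its own library, a comparison chosen after the values were seen. Ptprc per Sdc1 was 0.0927, 0.0633 and 0.0599 in the young group and 0.1805, 0.1253 and 0.147 in the old group. Cd81 per Sdc1 was 0.277, 0.272 and 0.279 in young and 0.3215, 0.419 and 0.412 in old libraries, the 3 young ratios being nearly equal although Cd81 itself differed 1.70-fold between those libraries. For these 2 of 9 members every old ratio was above every young one, and for 0 of 9 the reverse held. The same was true of 9.44% (above) and 1.19% (below) of tested genes divided by Sdc1. The exact permutation p was 0.1 for each, the smallest possible. With all libraries scaled to equal Sdc1, limma gave Ptprc a difference of 1.04 ± 0.59 (SE), adjusted p = 0.877, and Cd81 one of 0.46 ± 0.46, adjusted p = 0.884, so neither was called.

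The 9 ratios share 1 denominator. When Slamf7 was the denominator instead, the groups remained apart for Ptprc, at 0.1021, 0.1015 and 0.0761 against 0.1604, 0.131 and 0.167, and overlapped for Cd81, at 0.305, 0.436 and 0.354 against 0.286, 0.439 and 0.468. Old ratios all lay above young ones for 1 of 9 members, against 6.35% of tested genes, and all lay below for 0 of 9, against 2.74%. Cd24a per Sdc1 was 0.884, 0.425 and 0.462 in young and 0.7165, 0.952 and 1.25 in old libraries, overlapping by 1 library.

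**Figure D3:**
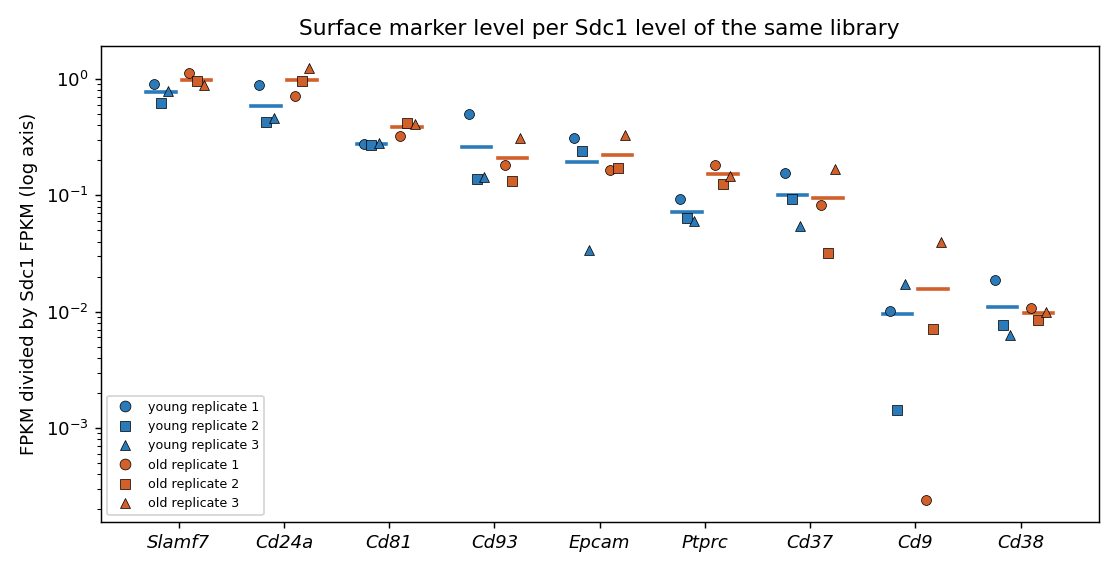
FPKM of 9 surface marker genes divided by the Sdc1 FPKM of the same library (log axis), with a bar at each group mean and colours and symbols by group and replicate. The old points lie above the young points for Ptprc (0.1253 to 0.1805 against 0.0599 to 0.0927) and Cd81 (0.3215 to 0.419 against 0.272 to 0.279) and overlap for the other 7.

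The genes around these markers were read through 7 lists, in which limma called 0 of 125 tested genes. At an unadjusted limma p under 0.05 there were 9 with higher and 2 with lower old values, beside 5.91% of all tested genes in either direction. Of the syndecan and heparan sulphate list, which makes and trims the sugar chains of CD138, 14 of 20 tested genes had a positive and 6 a negative difference, with a median of 0.44 beside 0.23 for all tested genes. The list median was -0.15 after quantile normalization, 0.091 without young replicate 2, 0.14 without young replicate 3 and 0.28 without old replicate 3, and rose to 0.76 without young replicate 1 and 0.72 without old replicate 1. Old values lay above young for 3 members and below for 0, where the background was 8.78% and 3.42% of tested genes. Sdc3, another syndecan, was at 5.19, 2.48 and 2.49 FPKM in young and 28.3, 14.1 and 13.2 in old libraries (limma adjusted p = 0.736). Ndst2, a heparan sulphate N-deacetylase and sulphotransferase, was at 0, 2.24 and 0.0687 against 9.51, 5.56 and 16.95 (limma adjusted p = 0.736). B4galt7, which adds a sugar of the chain's linker, overlapped between groups.

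In the list of tetraspanins and their partners 12 of 20 tested genes had a positive and 8 a negative difference, with a median of 0.36, or 0.18 after quantile normalization and 0.23 with old replicate 3 left out. Ifitm2, an interferon-induced membrane protein of the family that joins CD81, was listed at 0 in each young library, against 5.40, 1.165 and 76.1 FPKM in the old group (limma adjusted p = 0.780). It was the single member of 20 without overlap, against 12.2% of tested genes in either direction, and its highest value fell in old replicate 3, where monocyte markers were highest too. Their part in it was not tested. Cd53, a leukocyte tetraspanin, was at 58.4, 36.25 and 38.7 in young and 74.3, 67.4 and 57.7 in old libraries, and Cd82 was at 28.9, 13.4 and 15.4 against 44.7, 21.4 and 38.5, both with overlap.

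The SLAM list, the receptors related to Slamf7 and their adaptors, had 8 tested genes, 6 with a positive and 2 with a negative difference, and a median of 0.60, which was 0.30 without young replicate 3. Slamf9 was at 5.40, 0 and 0 FPKM in young and 16.6, 51.1 and 9.999 in old libraries, and the groups did not overlap (limma adjusted p = 0.680). Sh2d1b1, which encodes the adaptor EAT-2 that binds SLAM receptors, lay the other way without overlap, at 3.49, 2.98 and 6.69 against 2.74, 0.280 and 0.557 (limma adjusted p = 0.843). Ly9, another SLAM receptor, was at 18.2, 22.5 and 35.05 in young and 34.6, 61.5 and 41.1 in old libraries, overlapping in 1 library of each group.

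In the list on CD45 splicing and signalling 11 of 18 genes had a positive and 7 a negative difference, with a median of 0.19, or -0.05 after quantile normalization, 0.052 without young replicate 3 and 0.056 without old replicate 3. Fyn, a Src family kinase that CD45 acts on, was at 8.97, 14.9 and 8.625 FPKM in young and 74.6, 37.1 and 35 in old libraries, a difference of 2.03 ± 0.49 (SE) with a limma adjusted p = 0.623. Blk, the B lineage kinase of the same family, was at 10.97, 15.4 and 2.56 against 44.9, 43.6 and 16.1 (limma adjusted p = 0.788). These were the 2 members of 18 without overlap, both with old above young, where 8.78% of tested genes were so placed. Psip1, linked to CD45 exon choice, overlapped. Hnrnpll, the splicing factor known for switching CD45 to its short form in plasma cells, was chosen after its values were seen: it was at 0.698, 3.34 and 0 against 0.646, 2.10 and 2.88 FPKM.

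The NAD list around CD38 had 8 positive and 6 negative differences among 14 tested genes and a median of 0.25, which quantile normalization moved to -0.065 and the omission of old replicate 3 to 0.044. Nmnat1, the nuclear enzyme that makes NAD, was at 3.11, 0.0385 and 0 FPKM in young and 7.13, 7.27 and 8.17 in old libraries (limma adjusted p = 0.788), and Nmnat3, its mitochondrial relative, was at 0, 0 and 1.27 against 2.22, 4.355 and 2.13 (limma adjusted p = 0.841). Sirt6, a NAD-dependent deacylase, lay the other way without overlap, at 7.205, 13.5 and 15.1 against 2.64, 6.22 and 4.93 (limma adjusted p = 0.843). In the list of EpCAM, CD93 and CD24 partners 8 of 12 differences were positive and 4 negative, with a median of 0.63, which was 0.32 after quantile normalization, 0.27 without young replicate 2, 0.13 without young replicate 3 and 0.40 without old replicate 3. Cldn7, a claudin that binds EpCAM in epithelia, was at 1.18, 0 and 0 against 2.795, 4.235 and 2.72 FPKM (limma adjusted p = 0.839), while Adam10, a sheddase, and Thbd, a relative of Cd93, overlapped.

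Other surface genes of plasma cells and the B lineage formed the largest list, with 16 positive and 17 negative differences among 33 tested genes and a median of -0.05. Old values lay above young for 3 members and below for 3, where the background was 8.78% and 3.42% of tested genes. Leaving out young replicate 2 moved the median to -0.15, and leaving out young replicate 1 moved it to 0.14. Tnfrsf13c, the BAFF receptor of mature B cells, was at 110.0, 99.6 and 54.0 FPKM in young and 202, 250.3 and 156 in old libraries (limma adjusted p = 0.729). Ly6d, a lipid-anchored marker of lymphoid cells, was at 315.5, 263 and 327 against 152, 193 and 149, a difference of -0.87 ± 0.27 (SE) with a limma adjusted p = 0.736. Cd28, a costimulatory receptor that also sustains plasma cells, was at 32.7, 41.1 and 31.85 against 7.96, 22.9 and 3.53 (limma adjusted p = 0.736). The B cell marker list summed to 38.3 to 61.1 FPKM in young and 48.8 to 60.8 in old libraries. Its member Ms4a1, which encodes CD20, was at 1.41 to 6.155 in young and 6.31 to 25.35 in old libraries, without overlap, and the part of B cells in the Tnfrsf13c and Blk values was not tested.

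**Figure D4:**
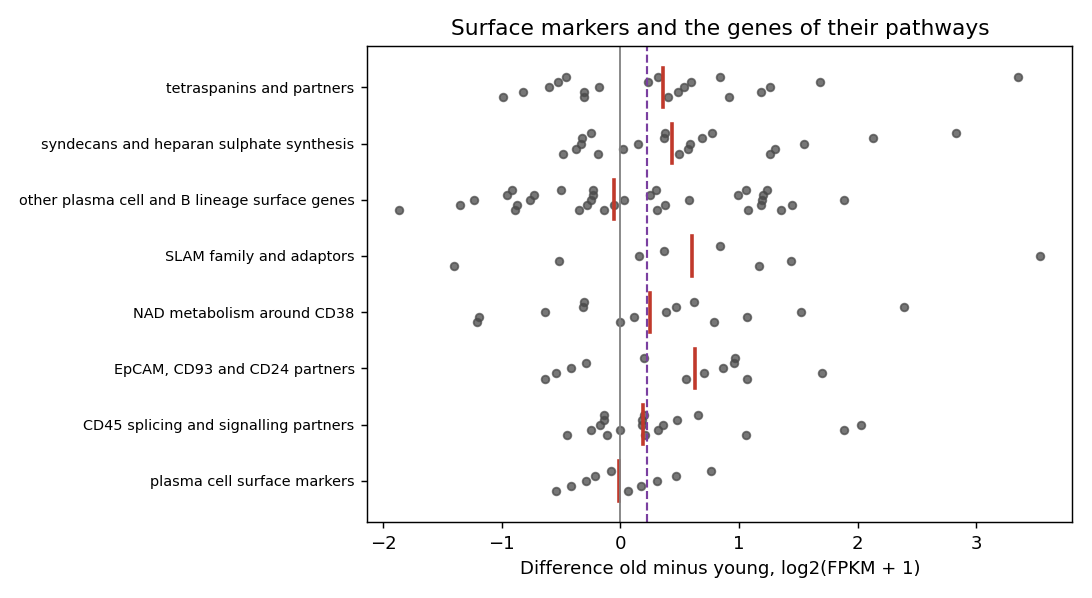
Difference old minus young on the log2(FPKM + 1) scale of each tested gene (points) in the 7 pathway lists and for the 10 surface markers, with a red bar at each list median, a grey line at 0 and a dashed line at the median of all tested genes (0.23). The surface markers lie between -0.55 and 0.76 around a median of -0.0089, while the pathway lists spread further in both directions.

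Genes whose pattern over the 6 libraries was most like that of 3 members were sought among 2835 genes with a mean of at least 20 FPKM, by Pearson r on log2(FPKM + 1). An r over 0.9 was reached by 29 of 2834 genes for Sdc1, 10 for Cd93 and 14 for Ptprc, and the genes named are a description over 6 libraries that differ in depth. For Sdc1 the nearest were Selenow (r = 0.973, n = 6), Gmppb (r = 0.970, n = 6) and Isg20 (r = 0.964, n = 6). Gmppb, an enzyme that makes the mannose donor for glycans, was at 26.9, 78.65 and 52.8 FPKM in young and 37.4, 41.9 and 12.6 in old libraries, lowest in old replicate 3 as Sdc1 was. For Ptprc they were Tspan13 (r = 0.980, n = 6), itself a tetraspanin, Guk1 (r = 0.979, n = 6) and H3f3b (r = 0.944, n = 6). Tspan13 was at 74.0, 88.3 and 75.4 in young and 133, 129 and 79.5 in old libraries, so it shared with Ptprc the 2 high old libraries. For Cd93 they were Prmt7 (r = 0.983, n = 6), Gm8906 (r = 0.9747, n = 6) and Polr2e (r = 0.944, n = 6), and all 3 were highest in young replicate 1. Gm8906 was at 196.5 FPKM there and listed at 0 in the other 5 libraries.

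The libraries held plasma cell transcripts throughout, each of the 12 plasma cell markers being at 1 FPKM or more in all 6, with other marrow cell types represented to different degrees. Of genes for the excluded antigens, Itgam (CD11b) did not exceed 1.17 FPKM in the young group and reached 7.30 in old replicate 2. Ly6g was at most 3.98, while Ly6c2, of the same Ly6 family, was at 5.34 to 113.5. The T cell list summed to 15.1 to 47.2, led by Cd2 (0 to 32.3) and Cd4 (1.995 to 23.4). Cd3e was at 0 in 4 libraries and at most 2.73, while Cd3g reached 5.05 and Lat 33.3, both in young replicate 3. The eosinophil and basophil list summed to 906.6 to 1485 FPKM, of which Prg2 alone made up 860.9 to 1353. The eosinophil peroxidase gene Epx did not exceed 9.945 and Siglecf did not exceed 1.47. Other genes of the list were higher: Mcpt8, Cpa3 and Ms4a2 reached 265, 54.75 and 45.6 in old replicate 3. In the other libraries they were at most 27.6, 1.78 and 9.595. Fcer1a reached 26.4 in young replicate 3. Neutrophil markers, led by S100a9 and Ngp, summed to 263 to 1288, with overlap of the groups. Within that list Elane and Ctsg lay higher in old libraries without overlap, and the other genes overlapped. Elane was at 0.0475 to 10.15 in young and 19.2 to 220 in old libraries (limma adjusted p = 0.680). Ctsg was at 0.3025 to 0.538 against 0.5695 to 282 (limma adjusted p = 0.758). Depth was estimated at about 22.6 M to 25.4 M reads in young and 27.0 M to 27.5 M in old libraries, and 8934 to 10664 against 11310 to 12049 genes were above 0. Both therefore differed between the groups, and their part in the differences of low genes was not tested.

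**Figure D5:**
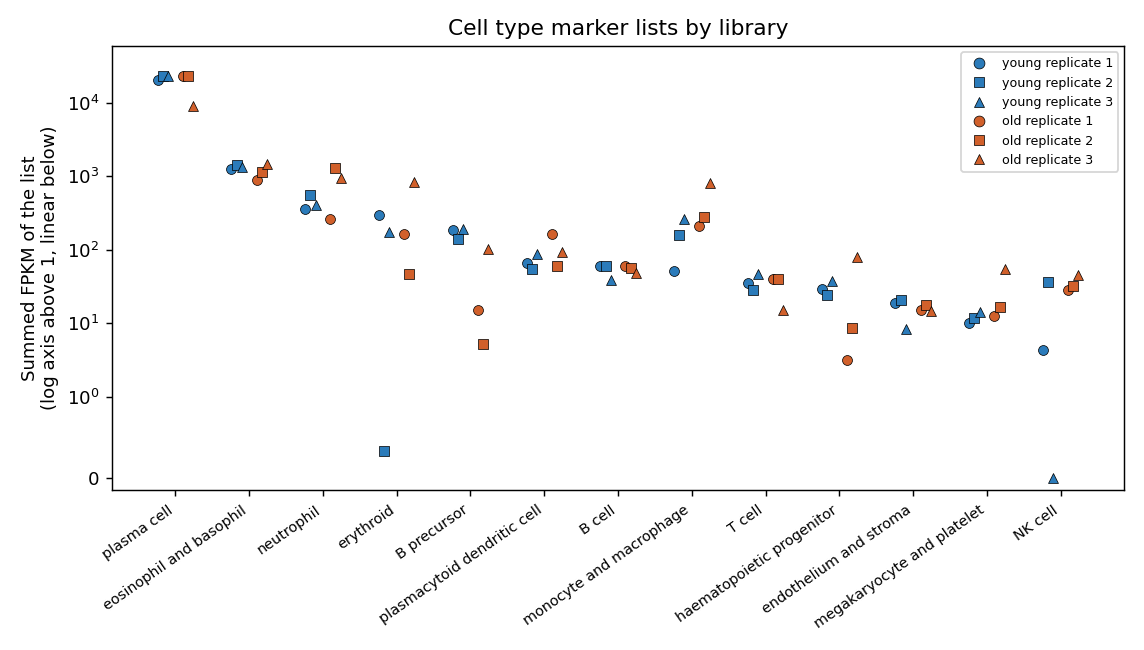
Summed FPKM of the marker genes of each cell type by library (log axis above 1, linear below), with colours and symbols by group and replicate. Plasma cell markers, mostly Jchain, sum to 20380 to 23550 FPKM in 5 libraries and to 9216 in old replicate 3. In that library erythroid, monocyte, progenitor, megakaryocyte, eosinophil and basophil, and NK cell markers are highest.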

How the data were processed

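RNA of sorted bone marrow plasma cells (5 ng per library) was sequenced with a stranded total-RNA kit, per the labels' protocols. The authors deposited FPKM values per gene and library. Per the submitters' processing notes, bcl2fastq 2.17, STAR and DESeq2 were used, roles not stated, with builds GRCm38 and mm10. Neither the counter nor the annotation is given in the sources used here. FPKM values are not counts, so no count model was run. Groups and replicate numbers came from sample titles.

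The test was limma 3.58.1 (R 4.3.3, mean-variance trend, pseudocount 1, mean of at least 1 FPKM, Benjamini-Hochberg over 10687 genes), and single genes by two-sided exact permutation. The fit was tested on simulated data. Log2 differences are old minus young and understate changes of low genes. Read numbers are approximate: the lowest values were scaled by merged exon lengths of GENCODE M21 (GRCm38), which matched 99.9% of identifiers without version and also gave coordinates. Amplified reads are not independent molecules, so these numbers reflect counting error only. The members and lists were chosen with earlier results of these data known. Named genes are all members, the 3 list members of smallest p, the 3 genes of most like pattern for Sdc1, Cd93 and Ptprc, and up to 2 leading genes of a marker list. Other marker and list genes (Gp9, Pf4, Ppbp, Cd3e, Cd3g, Lat, Itgam, Ly6g, Ly6c2, Elane, Ctsg, Epx, Siglecf, Cpa3, Ms4a2, Fcer1a, Vpreb1, Igll1) were chosen after their values were seen. Alternatives covered pseudocounts of 0.1 and 5, filters, scaling, the variance model, library weights, a replicate block and each library left out.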

Additional observations from a re-analysis of the deposited data

How the results depend on the processing

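Over 16 alternatives none of the 10 surface markers was called, the limma adjusted p ranging from 0.623 (Cd24a) to 0.9997 (Cd38), and 144 of 157 recomputed differences kept their sign. Sdc1, Cd37, Cd38, Cd93, Cd24a and Ptprc kept it in every alternative that gave a value. Slamf7 changed sign to -0.034 after median-ratio scaling. Epcam did so with array weights, at -0.025, and Cd9 at a pseudocount of 5 (0.019), with array weights (0.074) and scaled to equal Sdc1 (0.098), a scaling chosen after seeing the data. Leaving out single libraries gave -0.14 to 0.42 for Slamf7, -0.64 to 0.88 for Epcam, -0.76 to 0.68 for Cd9 and -0.12 to 0.39 for Cd81, each range crossing 0. The signs changed for Slamf7 at -0.013, -0.083 and -0.14 without young replicate 1, old replicate 1 and old replicate 2, for Epcam at -0.64 without young replicate 3, for Cd9 at 0.41 and 0.68 without young replicate 3 and old replicate 1, and for Cd81 at -0.029 and -0.12 without young replicate 1 and old replicate 2. The cause was not tested. At a mean of at least 5 FPKM, Cd38 and Cd9 left the test.

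Over all genes limma called 0, but 1 after quantile normalization, 1 with array weights, 2 when scaled to equal Sdc1, and 0 to 7 without single libraries, the 7 being without young replicate 3. None of these was a surface marker. With replicate number as a block 0 genes were called and the Ptprc adjusted p was 0.898. Same-numbered libraries did not deviate together over genes (r = -0.034, 0.020 and -0.0041). With so few libraries per group this cannot exclude a shared preparation, and the labels do not say whether the numbers pair them. Over all tested genes the median difference, 0.23 on deposited values, became 0.13 with median-ratio scaling, -0.010 with quantile normalization and 0.49 when scaled to equal Sdc1. Depth limits Cd9 most, whose lowest value rests on few reads.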
